A study of Mus musculus with 4 samples.

Results

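The entry of an oocyte into its meiotic divisions is set by maturation promoting factor, a complex of the kinase CDK1 with a B-type cyclin, and by the kinases and phosphatases that switch it. The transcripts described here are the 10 genes named for that module: Ccnb1, Ccnb2, Ccnb3, Cdk1, Cks2, Wee2, Pkmyt1, Cdc25a, Cdc25b and Cdc25c. They were chosen by gene name, and all 10 were found among the 26631 rows of the deposited table. RNA came from denuded mouse oocytes, that is, oocytes stripped of their cumulus cells, of wild type C57BL/6 mice at postnatal day 24. In the control group (n = 2 libraries) the oocytes were kept with DMSO, and in the other group (n = 2 libraries) they were treated with HDACi 4b, which inhibits HDAC1 and HDAC3, enzymes that take acetyl groups off histones. Both groups carried no deletion or transgene and differed, as far as the labels go, only in the agent. Ovaries are given as the extracted material in a label, whereas the cell type is denuded oocytes, and the study's text calls the sequenced cells mature oocytes. The oocytes of a group were pooled for sequencing, and no label states separate animals or cultures behind the libraries of a group, so a p-value reflects the spread of these libraries alone, which may be technical.

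Cyclin B binds CDK1 and makes it able to phosphorylate the proteins that break down the nuclear envelope, condense chromosomes and build the spindle. In the arrested oocyte the complex is held inactive by phosphates that WEE2 and PKMYT1 place on CDK1, and CDC25 phosphatases take these phosphates off when meiosis resumes. Much of this control acts through translation, phosphorylation and destruction of the proteins, none of which were measured here. The comparison asks whether treatment with the inhibitor, once the cumulus cells were removed, changed the RNA stock of this module.

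The totals recovered from the values were 13478189 to 14903547 reads per library. Values are given in RPKM, reads normalized for exon length and depth, as deposited. The label of the cells was compared with their markers. The 8 oocyte markers (Zp1, Zp2, Zp3, Gdf9, Bmp15, Oosp1, Ddx4 and Nlrp5) summed to 6488 to 8456 RPKM, whereas 9 granulosa and cumulus markers, of which only Cyp19a1 and Nr5a2 averaged 1 RPKM or more, summed to 6.17 to 7.38 RPKM, 6 theca and stroma markers to 0.712 to 1.15 RPKM and 5 endothelial and blood markers to 1.28 to 1.81 RPKM. Foxl2, which defines granulosa cells, was listed at 0 in 3 libraries. Transcripts of macrophages and other immune cells were not absent and set single libraries apart. Their 7 markers, 5 of them with a mean of at least 1 RPKM, summed to 69.6 and 38.6 RPKM in control replicates 1 and 2 and to 121 and 24.5 RPKM in HDACi 4b replicates 1 and 2, so the sums of the groups overlapped. Within the list, Ccl3 (11.7 and 15.5 against 5.17 and 6.95 RPKM) and Cd14 (1.98 and 2.50 against 1.15 and 1.04 RPKM) were lower in both treated libraries. So were 16.8% of all tested genes in deposited RPKM. The others, Lyz2, Adgre1, Csf1r, Ptprc and C1qa, were instead highest in HDACi 4b replicate 1. C1qa, for example, was at 33.3 and 9.42 RPKM in control and 74.4 and 8.12 RPKM in treated oocytes. The part of these cells in the results was not tested. As in any bulk sample, fewer cells of a type and less RNA per cell cannot be told apart.

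Among the B-type cyclins, Ccnb1 was by far the most abundant transcript. Ccnb1 (ENSMUSG00000041431.16, chr13:100778650-100786570 on the minus strand of GRCm38) encodes cyclin B1, the partner of CDK1 that mouse oocytes accumulate on the way to the first metaphase. It was at 333 and 329 RPKM in control replicates 1 and 2 and at 360 and 371 RPKM in HDACi 4b replicates 1 and 2. Both treated libraries thus lay above both controls in the deposited values, with group means of 331.1 ± 2.53 and 365.6 ± 8.03 RPKM (SD, n = 2). This separation was lost once the libraries were scaled to each other, since the scaled values were 365 and 286 RPKM in the controls and 349 and 402 RPKM in the treated libraries. The log2 fold change was 0.21 ± 0.25 (SE), a fold of 1.16 (95% interval 0.768 to 1.75, limma, Benjamini-Hochberg adjusted p = 1.0). Fold changes here and below are on the log2(scaled RPKM + 0.1) scale, which understates changes of low genes.

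Ccnb1 has near-identical copies in the genome, so its level rests on how reads were divided. The processed pseudogene Ccnb1-ps on chromosome 7 holds 1287 bases that align over their whole length to the coding sequence of Ccnb1 with 10 differences (99.2% identity). The following 60 bases, which start at base 415 of the coding sequence, are shown because they are a stretch with as many differences between gene and copy as any of that length, and they still differ at only 2 bases, given in capitals. In GRCm38 they lie on the minus strand at chr13:100783528-100783587, in an exon of Ccnb1, and at chr7:42106712-42106771, in the copy.
Ccnb1: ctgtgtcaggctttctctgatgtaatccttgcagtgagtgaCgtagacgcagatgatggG
Ccnb1-ps: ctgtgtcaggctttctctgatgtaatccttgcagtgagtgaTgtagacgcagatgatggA
Of the 2440 windows of 50 bases in the principal Ccnb1 transcript, 1028 (42.1%) were found letter for letter in a transcript of another gene, mostly Ccnb1-ps. Even so, the copy was credited with few reads, at 219 and 168 in the controls and 255 and 262 in the treated libraries, or 0.898% to 1.19% of the reads of Ccnb1. In RPKM the copy was at 12.0 and 9.68 in the controls and 13.3 and 14.4 in the treated libraries, with both treated libraries higher as deposited but not after scaling, as for Ccnb1 itself. Its fold was 1.34 (95% interval 0.886 to 2.04, limma, adjusted p = 1.0), and reads of the gene and of the copy cannot be assigned with certainty. A further copy, Gm12856, held 171 reads over the 4 libraries.

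Ccnb2 (ENSMUSG00000032218.7, chr9:70407692-70421547, minus strand) encodes cyclin B2, which can also activate CDK1 in oocytes. It was at 49.4 and 68.5 RPKM in control and 63.3 and 44.4 RPKM in HDACi 4b oocytes, and the groups overlapped. The libraries of a group differed here more than the group means, which were 58.9 ± 13.5 and 53.8 ± 13.4 RPKM, and the fold was 0.956 (95% interval 0.687 to 1.33). Ccnb3 (ENSMUSG00000051592.14, chrX:6979652-7041619, minus strand), the cyclin that promotes anaphase of the first meiotic division, was at 7.19 and 9.73 RPKM in control and 9.02 and 9.59 RPKM in treated oocytes. These values overlapped as deposited, and the treated libraries were higher only after scaling, with a fold of 1.16 (95% interval 0.873 to 1.55). The paralogues kept their order in each of the 4 libraries. Ccnb1 made up 80.8% to 87.3% of the summed RPKM of the B-type cyclins, Ccnb2 10.4% to 16.8% and Ccnb3 1.85% to 2.39%. These shares depend on the exonic length. Per length of the longest principal transcript they were 87.7% to 92.1% for Ccnb1, 6.49% to 10.8% for Ccnb2 and 1.16% to 1.53% for Ccnb3.

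Cdk1 (ENSMUSG00000019942.13, chr10:69335146-69352938, minus strand), the catalytic subunit, was low beside its cyclin. It was at 3.88 and 3.98 RPKM in control and 4.26 and 5.03 RPKM in HDACi 4b oocytes, from 265 to 350 reads per library. Both treated libraries were above both controls as deposited, but not after scaling, and the fold of 1.23 had a 95% interval of 0.855 to 1.77 (limma, adjusted p = 1.0). Its level relative to other genes depends on the length by which reads are divided. The deposited value uses 4934 bases of all annotated exons, whereas the principal transcripts of Cdk1 have 4375 and 1253 bases. Ccnb1 was therefore 81.2 times Cdk1 in mean deposited RPKM, 122 times with the longest and 34.9 times with the shortest principal transcript of each gene. These divisions keep all reads of a gene, also any from exons outside the principal transcript.

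Cks2 (ENSMUSG00000062248.5, chr13:51645232-51650660, plus strand) encodes a small CDK-binding subunit needed for the first meiotic anaphase in mice. It was at 46.6 and 61.2 RPKM in control and at 40.7 and 40.3 RPKM in HDACi 4b oocytes, from 393 to 571 reads per library. Both treated libraries were below both controls, as deposited and after scaling (51.1 and 53.2 against 39.5 and 43.6 scaled RPKM). This was the smallest unadjusted p of the tested members, yet it did not pass the test, with a log2 fold change of -0.33 ± 0.17 (SE), a fold of 0.796 (95% interval 0.600 to 1.06, limma, adjusted p = 1.0). In the Cks2 transcript 191 of 643 windows of 50 bases (29.7%) also occur in other genes, among them Gm15452, which held 112 reads over the 4 libraries, so the level of Cks2 carries that uncertainty. Its paralogue Cks1b was more abundant in every library and took 86.8% to 89.8% of the summed RPKM of the pair.

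**Figure D1:**
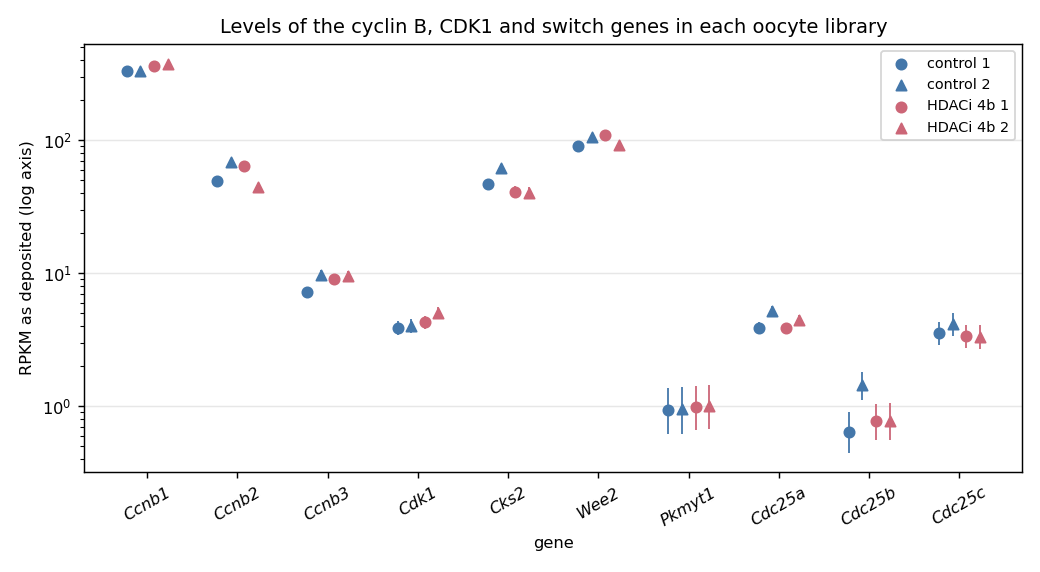
Deposited RPKM (log axis) of the 10 genes in each library, with circles for replicate 1, triangles for replicate 2, blue for control and red for HDACi 4b. Bars are exact 95% Poisson intervals of the recovered reads and cover counting error only; Ccnb1 lies at 329 to 371 RPKM and Pkmyt1 and Cdc25b lie near 1 RPKM.

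On the inhibitory side of the switch, Wee2 was the dominant kinase transcript. Wee2 (ENSMUSG00000037159.11, chr6:40439088-40466813, plus strand) encodes the oocyte-specific WEE1 homologue that phosphorylates CDK1 to hold meiotic arrest. It had 3982 and 4435 reads in control replicates 1 and 2 and 5092 and 4091 reads in HDACi 4b replicates 1 and 2. In RPKM these were 89.7 and 104.8 against 108.8 and 92.5, and the groups overlapped. The fold was 1.09 (95% interval 0.801 to 1.47, limma, adjusted p = 1.0). Pkmyt1 (ENSMUSG00000023908.8, chr17:23726336-23736735, plus strand), the membrane-bound kinase of the same family, was close to the mean of 1 RPKM required for the test, at 0.936 and 0.946 RPKM in control and 0.987 and 1.01 RPKM in treated oocytes. These values come from 26 to 30 reads, which allow 0.617 to 1.36 RPKM in control replicate 1 by counting error alone. With a mean below 1 RPKM it was not in the test, and without that filter the fold was 1.10 (95% interval 0.652 to 1.86). Pkmyt1 shares 319 exonic bases with Paqr4 on the opposite strand, a gene with 205 reads over the 4 libraries against 112 for Pkmyt1, so some of these few reads may belong to either. Wee2 made up 94.8% to 96.3% of the summed RPKM of Wee2, Wee1 and Pkmyt1 in the 4 libraries, and it exceeded Wee1 by 22.2 to 35.8 times.

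On the activating side, no CDC25 phosphatase transcript approached the level of Wee2. Cdc25a (ENSMUSG00000032477.14, chr9:109875579-109893895, plus strand), which in dividing cells also acts at entry into S phase, was at 3.90 and 5.21 RPKM in control and 3.84 and 4.44 RPKM in HDACi 4b oocytes, with overlapping groups and a fold of 0.963 (95% interval 0.692 to 1.34). Its deposited level uses 8023 exonic bases, and with the 3632 bases of its principal transcript the mean over the 4 libraries rises from 4.35 to 9.60. All reads of the gene were kept in that division, also any from other exons, so 9.60 may be too high. Cdc25c (ENSMUSG00000044201.10, on chromosome 18), which acts on CDK1 at entry into mitosis, was at 3.53 and 4.13 RPKM in control and 3.35 and 3.33 RPKM in treated oocytes. Both treated libraries were lower as deposited, within the counting error of 91 to 108 reads, and they overlapped the controls after scaling, with a fold of 0.920 (95% interval 0.677 to 1.25).

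Cdc25b (ENSMUSG00000027330.16, chr2:131186949-131198497, plus strand) is the phosphatase without which mouse oocytes stay arrested in prophase, and it was among the scarcest of the 10 transcripts. It was at 0.645 and 1.43 RPKM in control replicates 1 and 2 and at 0.774 and 0.780 RPKM in HDACi 4b replicates 1 and 2. The 72 reads of control replicate 2 stood above the 34 of control replicate 1, and their counting intervals (1.12 to 1.80 and 0.447 to 0.901 RPKM) did not overlap, while both treated libraries (43 and 41 reads) lay between the controls. With a mean below 1 RPKM it was not in the test, and without that filter its fold was 0.860 (95% interval 0.449 to 1.65), the only one of the 10 intervals to reach beyond 2-fold. A stretch of 92 exonic bases overlaps Spef1 on the opposite strand, which held 8 reads in all. Of the summed CDC25 RPKM as deposited, Cdc25a made up 48.2% to 51.9%, Cdc25c 38.3% to 43.8% and Cdc25b 7.99% to 13.3%. These shares depend on the exonic length, and per length of the principal transcript they were 66.3% to 69.7% for Cdc25a, 23.6% to 27.3% for Cdc25c and 6.03% to 9.97% for Cdc25b.

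**Figure D2:**
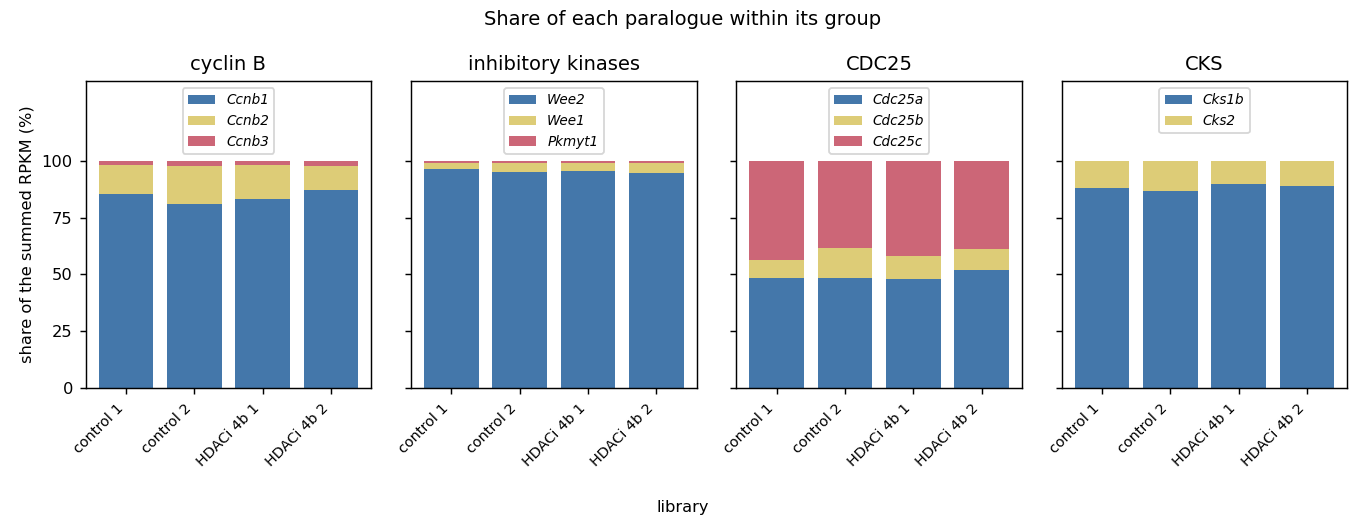
Share of the summed deposited RPKM (%) of each gene within its group, 1 bar per library. Ccnb1 (80.8% to 87.3%), Wee2 (94.8% to 96.3%) and Cks1b (86.8% to 89.8%) lead their groups in all 4 libraries, whereas Cdc25a (48.2% to 51.9%) and Cdc25c (38.3% to 43.8%) share the CDC25 group, a split that moves to 66.3% to 69.7% and 23.6% to 27.3% per length of the principal transcript. On that length the share of Ccnb1 is 87.7% to 92.1%.

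Ordered by mean RPKM the members ran Ccnb1, Wee2, Ccnb2, Cks2, Ccnb3, Cdc25a, Cdk1, Cdc25c, Pkmyt1 and Cdc25b. The first 6 kept this order in every library. Cdc25a and Cdk1 changed places between libraries (ratio 0.882 to 1.31), as did Cdk1 and Cdc25c (0.965 to 1.51) and Pkmyt1 and Cdc25b (0.660 to 1.45). These neighbours therefore did not differ beyond the spread of the libraries. The middle of the order also depends on transcript length, since Cdk1 averaged 16.9 reads per kilobase and depth with its shortest principal transcript, above Cdc25a (9.60) and Ccnb3 (9.06).

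Of the 10 members, 8 had a mean of at least 1 RPKM and entered the fit with 9461 genes. At an adjusted p under 0.05, limma called 0 of these 8, with an adjusted p of 1.0 for each, and 0 of all 9461 genes (0.00%). At an unadjusted p under 0.05 there were 0 members, against 268 of all tested genes (2.83%). limma-voom on the recovered reads likewise called 0 members and 0 of all genes. The median log2 fold change was 0.03 over the 8 members and -0.0014 over all tested genes, and 4 of the 8 were positive, against 49.7% of all tested genes. A p that misses the threshold does not show equal levels, so the intervals were read as well. The 95% interval of the fold lay between 0.5 and 2 for 8 of 8 members, as it did for 81.2% of all tested genes.

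**Figure D3:**
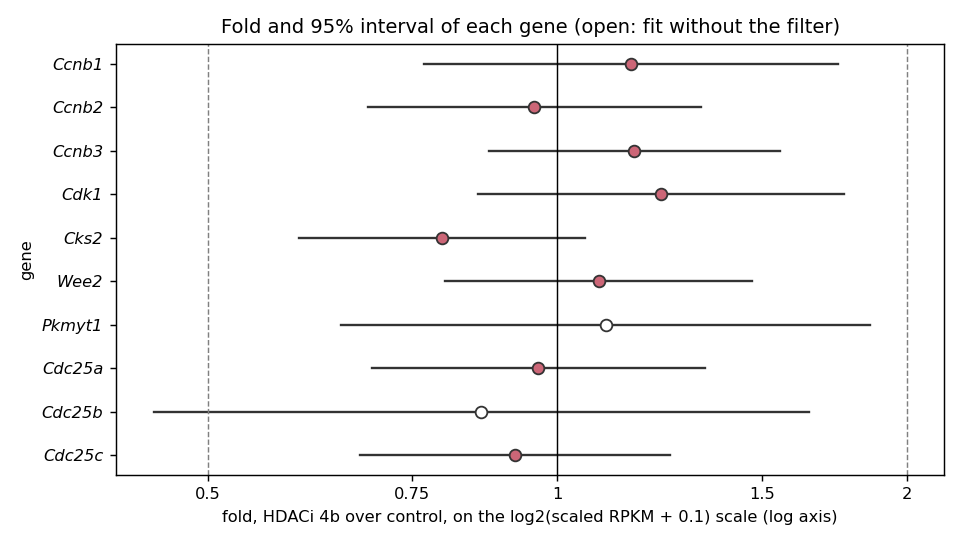
Fold of HDACi 4b over control (log axis) with its 95% interval for each of the 10 genes, filled for the 8 genes in the limma fit and open for Pkmyt1 and Cdc25b, taken from the fit without the filter. Each interval spans 1, and only that of Cdc25b (0.449 to 1.65) crosses a dashed line at 0.5 or 2.

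The separation of the groups by single libraries depended on scaling. In deposited RPKM, both treated libraries were above both controls for 2 of the 8 tested members, Ccnb1 and Cdk1, and for 6.60% of all tested genes. Both were below for 2 members, Cks2 and Cdc25c, and for 16.8% of all tested genes. After scaling, the higher members were Ccnb3 and Wee2 (13.6% of all tested genes) and the lower was Cks2 alone (14.4% of all tested genes). Cks2 was thus the only tested member whose groups were apart in the same direction on both scales. The share of all tested genes apart on both scales was not counted, so this does not set Cks2 apart from other genes.

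Ratios within a library do not depend on that scaling, and 7 were compared by an exact two-sided permutation test over the libraries, which with 2 against 2 cannot go below p = 0.33. The ratio of Cks2 to Cdk1 was 12.0 and 15.4 in control and 9.57 and 8.01 in HDACi 4b oocytes, the only one of the 7 with groups apart (log2 difference -0.63, exact p = 0.33). The ratio of Ccnb1 to Cdk1 was 85.7 and 82.6 in control and 84.6 and 73.8 in treated oocytes, with a log2 difference of -0.09 (exact p = 0.67). The balance of inhibitor and activator, Wee2 to Cdc25b, was 139 and 73.1 in control and 141 and 118 in treated oocytes, so that the spread between the controls covered most of it (log2 difference 0.36, exact p = 0.67). Ccnb1 to Ccnb2 was 6.74 and 4.81 against 5.69 and 8.37, also with overlapping groups. None of the 7 passes a Benjamini-Hochberg adjustment, as the design does not allow it.

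**Figure D4:**
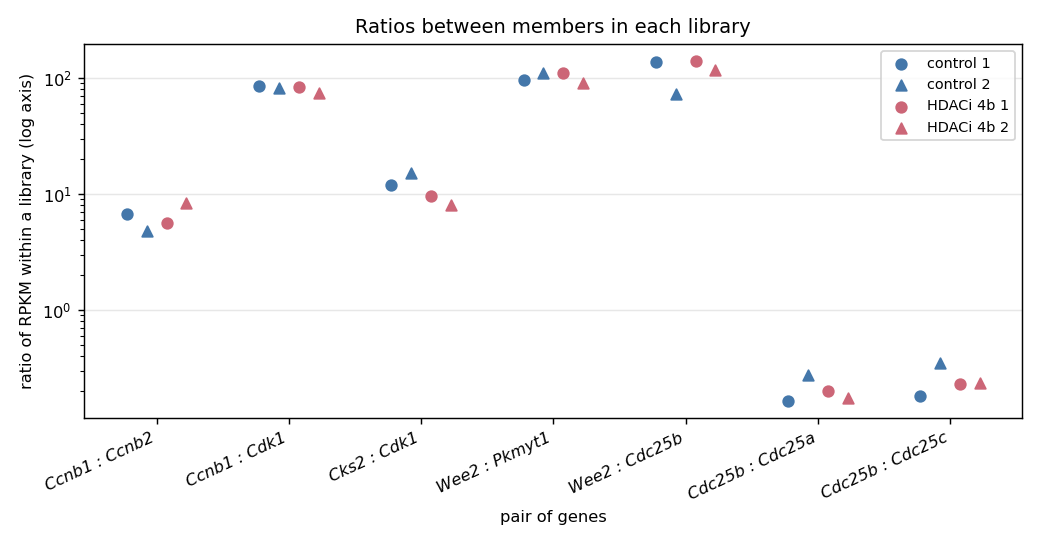
Ratio of deposited RPKM of a pair of genes within each library (log axis), with blue for control, red for HDACi 4b, circles for replicate 1 and triangles for replicate 2. Only for Cks2 to Cdk1 do both treated libraries (9.57 and 8.01) lie on a single side of both controls (12.0 and 15.4).

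Promoters are shown for Ccnb1, Ccnb2 and Cdk1 only. Transcription of these partners in cycling cells is tied to CCAAT boxes, bound by NF-Y, and to the CHR element TTTGAA. The 250 bases before the annotated start (RefSeq, GRCm38.p6, all on the minus strand) are given with CCAAT and TTTGAA, on either strand (ATTGG and TTCAAA), in capitals. They lie at chr13:100786487-100786736 for Ccnb1, chr9:70421555-70421804 for Ccnb2 and chr10:69352913-69353162 for Cdk1.
Ccnb1: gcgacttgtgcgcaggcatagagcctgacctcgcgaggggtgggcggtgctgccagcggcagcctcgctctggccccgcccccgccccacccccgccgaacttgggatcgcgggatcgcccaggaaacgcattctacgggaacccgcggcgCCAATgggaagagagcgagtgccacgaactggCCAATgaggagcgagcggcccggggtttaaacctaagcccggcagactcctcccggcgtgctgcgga
Ccnb2: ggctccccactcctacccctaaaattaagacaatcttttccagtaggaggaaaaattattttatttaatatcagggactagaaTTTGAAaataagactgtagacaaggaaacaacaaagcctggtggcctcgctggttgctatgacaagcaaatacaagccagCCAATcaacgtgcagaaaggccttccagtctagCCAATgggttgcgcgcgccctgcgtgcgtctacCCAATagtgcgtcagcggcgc
Cdk1: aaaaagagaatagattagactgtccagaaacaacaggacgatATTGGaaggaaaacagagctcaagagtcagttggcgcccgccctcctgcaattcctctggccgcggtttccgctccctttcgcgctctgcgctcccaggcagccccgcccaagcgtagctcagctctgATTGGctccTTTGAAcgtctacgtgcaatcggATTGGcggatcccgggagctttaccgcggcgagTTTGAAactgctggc
Ccnb1 holds 2 CCAAT boxes, 99 and 67 bases before its start, Ccnb2 holds 3 and Cdk1 holds 3. TTTGAA occurs in the Cdk1 window 71 and 15 bases before the start and in that of Ccnb2 167 bases before it. For Ccnb1 and Cdk1 the RefSeq start lies inside the GENCODE span given above. Part of each of these windows, with the sites nearest the start, therefore falls within that span. Only this spelling, and only the 250 bases before the start, were searched. A window without TTTGAA, such as that of Ccnb1, therefore does not show that a CHR element is absent. A promoter was found for 8 of the 10 members under their symbols; Pkmyt1 and Cdc25c were the others. Of these 8, 7 had at least 1 CCAAT, as did 33.8% of all 32851 promoters of this length, and 2 had TTTGAA, as did 16.0% of all. Ccnb3 held neither. A match is only a run of letters, and the levels of Ccnb1, Ccnb2 and Cdk1 in this experiment were those given above, with no call for any of them.

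The genes around the switch were taken as 7 lists of 54 genes, all of which were in the table, and 45 were tested. limma called 0 of the 45 at an adjusted p under 0.05, against 0.00% of all 9461 tested genes. At an unadjusted p under 0.05 there were 0, against 2.83% of all tested genes. Of the 45, 19 lay above and 26 below a fold of 1, where 49.7% of all tested genes were above. Intervals within 2-fold were found for 41 of the 45 and for 81.2% of all tested genes. In deposited RPKM both treated libraries were below both controls for 16.8% of all tested genes and above both for 6.60% (14.4% and 13.6% after scaling). Among other cyclins, CDKs and CKS proteins, 6 of 12 were tested. Cks1b was the most abundant (356.1 RPKM on average, fold 0.954), and the smallest p was that of Cdk4, a kinase of G1 phase, at 1.04 and 1.87 RPKM in control and 1.03 and 0.917 RPKM in treated oocytes (adjusted p = 1.0). Ccna2, the cyclin of S phase and G2, was at 6.08 to 8.32 RPKM, and Ccnb1 exceeded it by 39.6 to 61.0 times. Of the 3 genes of the CDK activating kinase, which phosphorylates CDK1 on its activation loop, Cdk7 averaged 37.0 RPKM with a fold of 1.03, and Ccnh had the smallest p (fold 1.17).

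The list of WEE1 and of kinases and a cofactor upstream of the switch held 9 genes, and 7 were tested. Chek1, the checkpoint kinase that inhibits CDC25, was the most abundant at 106.5 RPKM on average, with a fold of 1.09 (95% interval 0.805 to 1.48). Prkaca, the catalytic subunit of protein kinase A that keeps the oocyte arrested, was at 1.08 and 2.45 RPKM in control and 0.836 and 0.742 RPKM in HDACi 4b oocytes. Both treated libraries were lower, with a fold of 0.536 (95% interval 0.286 to 1.004, limma, adjusted p = 1.0). Prkaca had the smallest p in the 7 lists but did not pass the test. Its values come from 38 and 82 reads in control and 31 and 26 reads in treated oocytes, and control replicate 2 alone stood high. Among 14-3-3 proteins, which hold phosphorylated CDC25 in the cytoplasm, all 6 were tested; Ywhae averaged 452.8 RPKM with a fold of 1.10, and Ywhaq had the smallest p (fold 0.842).

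Of the 10 phosphatase genes that oppose CDK1, or inhibit those that do, 9 were tested. Arpp19, which inhibits the phosphatase PP2A once MASTL has phosphorylated it, averaged 88.5 RPKM (fold 0.948). Ppp2r1a, the scaffold of PP2A, had the smallest p at 3.54 and 8.75 RPKM in control and 3.68 and 3.22 RPKM in treated oocytes, where control replicate 2 alone stood high (fold 0.654). All 9 genes for the destruction of cyclin B were tested. Fbxo5, the inhibitor EMI1 of the anaphase promoting complex, averaged 86.1 RPKM (fold 1.12), and Cdc20, the activator of that complex, was at 43.1 and 42.4 RPKM in control and 32.9 and 30.2 RPKM in treated oocytes. Both treated libraries of Cdc20 were lower, with a fold of 0.774 (95% interval 0.563 to 1.06, limma, adjusted p = 1.0), which did not pass the test.

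The translation of cyclin B mRNA in oocytes is switched on by DAZL and CPEB1, and all 5 genes of that list were tested. Dazl was both the most abundant and the one with the smallest p, at 234 and 235 RPKM in control and 277 and 264 RPKM in HDACi 4b oocytes. Both treated libraries were higher, as deposited and after scaling, with a fold of 1.21 (95% interval 0.827 to 1.76, limma, adjusted p = 1.0). So were 6.60% of all tested genes as deposited and 13.6% after scaling, and the share on both scales was not counted. Cpeb1 was at 84.8 and 116.8 RPKM in control and 86.5 and 113.5 RPKM in treated oocytes, with a fold of 1.04.

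**Figure D5:**
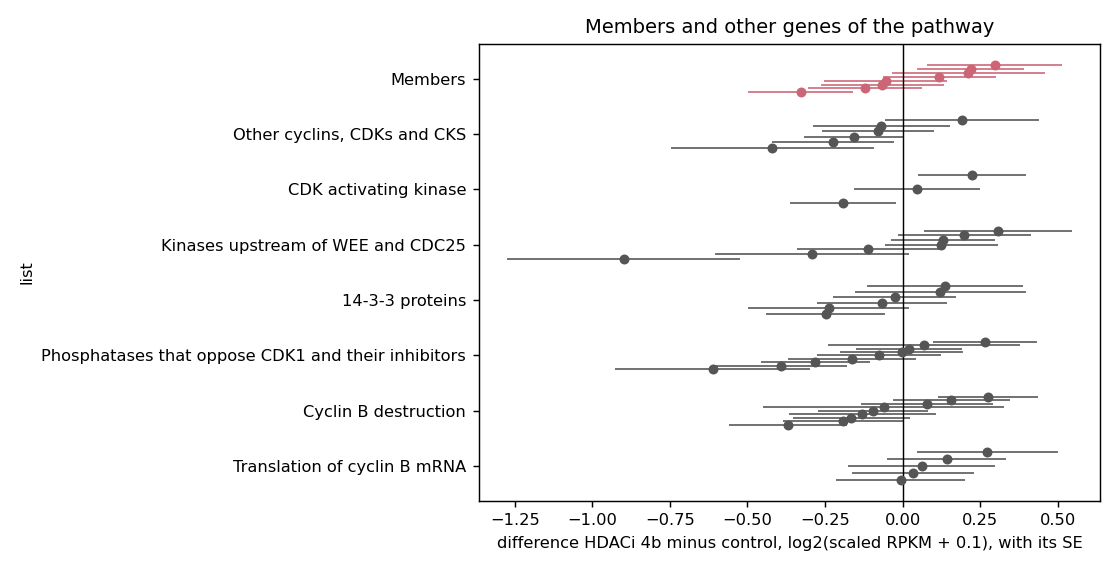
Difference of HDACi 4b minus control in log2(scaled RPKM + 0.1), with its SE, for the 8 tested members (red) and the 45 tested genes of 7 lists (grey), 1 point per gene. The points of each list lie around 0, and Prkaca is the leftmost at -0.90.

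The pattern of Ccnb1 over the 4 libraries was compared with those of 1036 other tested genes of at least 50 RPKM, as the root mean square difference of their centred log2 levels. The 3 closest were Zfp57 (0.0184), Tsg101 (0.0199) and mt-Nd4 (0.0232). Zfp57 was at 196 and 191 RPKM in control and 216 and 220 RPKM in treated oocytes. Of the members, which were not held to the limit of 50 RPKM, Pkmyt1 (0.0439) and Cdk1 (0.0820) were nearest to Ccnb1. Pkmyt1 had only 26 to 30 reads per library. Its counting interval in control replicate 1 alone, 0.617 to 1.36 RPKM, was wider than its range over the libraries. With 4 libraries and 1036 candidates such closeness is a description only.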

How the data were processed

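RNA sequencing of 4 libraries was used, 2 of control and 2 of HDACi 4b oocytes, with groups and replicate numbers from the labels. The authors deposited 1 table of RPKM values, and Bowtie 0.12.2 and the build mm8 are named in the processing notes of the submitters. Which tool counted reads, and whether by strand, is not given in the sources used here. Reads of overlapping genes on opposite strands therefore cannot be told apart. Exonic lengths of GENCODE M21 (GRCm38) gave whole reads within 0.01 reads for 22632 of 26631 rows (85.0%), and ratios between libraries gave them for the other 3999. Lengths for Pkmyt1 and Cdc25c came from these ratios, and recovered reads made up 98.3% to 98.5% of the totals. At this depth 3 reads equal 0.201 to 0.223 CPM. Intervals on reads are exact Poisson intervals and cover counting error only. Within each group the libraries differed beyond sampling noise, so none was counted as a copy.

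Values were divided by 0.911 and 1.15 in control replicates 1 and 2 and by 1.03 and 0.925 in HDACi 4b replicates 1 and 2, the trimmed means of ratios between libraries of recovered reads, with 30% of the ratios and 5% of the levels left out. Genes averaging 1 RPKM or more were tested with limma 3.58.1 in R 4.3.3 on log2(scaled RPKM + 0.1), with an intensity trend, two-sided moderated tests and Benjamini-Hochberg adjustment over all 9461 genes at 0.05. Ratios used an exact permutation test. Sequences were read with Python 3.11.15 and Biopython 1.88 from GENCODE transcripts and RefSeq promoters, and principal transcripts are those of the APPRIS tag. Levels and shares per length of a principal transcript divide all recovered reads of the gene by that length. Reads from other exons were not left out, so such levels may be too high. Named were all members, the 3 genes most like Ccnb1, plus 2 tested genes of each list (that of highest level and that of lowest p). Wee1, Ccna2 and Cpeb1, and the overlapping genes and copies, were added after their values were seen. Members and lists were chosen with earlier results of these data known. Alternatives were other scalings, pseudocounts, filters and priors, limma-voom, a replicate block and leaving out each library.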

Additional observations from a re-analysis of the deposited data

How the results depend on the processing

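No member was called under any alternative run (3 other scalings, pseudocounts of 1 and 0.01, no filter, a filter of 5 RPKM, no trend, robust estimation, limma-voom, the replicate block and each library left out), and all tested genes gave 0 calls under each except without HDACi 4b replicate 2, which gave 5 (Gm24975, Krt18, Calcoco2, Gm22107 and Ighd2-7, named after their values were seen, with 1 treated library left). The scalings, pseudocounts and priors reversed no member. With a filter of 5 RPKM, 5 members kept intervals within 2-fold, because Cdk1, Cdc25a and Cdc25c were no longer tested. With a library left out, 6 to 8 members had such intervals, with 6 when either HDACi 4b library was left out. Without the filter 41.0% of all genes had such an interval, and 58.2% to 67.6% with a library left out. Leaving out a library turned the log2 fold change of Ccnb2 (0.0023 with control replicate 2 left out and 0.11 without HDACi 4b replicate 2, range -0.24 to 0.11), of Cdc25a (0.12 without HDACi 4b replicate 1, range -0.23 to 0.12) and, without the filter, of Pkmyt1 (-0.0064 without control replicate 2, up to 0.28) and Cdc25b (0.15 without control replicate 2, range -0.59 to 0.15), none of them called, and the lone library was assumed to vary like the other group. The range was 0.04 to 0.39 for Ccnb1, 0.10 to 0.34 for Ccnb3, 0.10 to 0.49 for Cdk1, -0.40 to -0.26 for Cks2, 0.06 to 0.17 for Wee2 and -0.19 to -0.05 for Cdc25c. For the log2 difference in Cks2 to Cdk1 it was -0.81 to -0.46, while the other 6 ratios changed sign: Ccnb1 to Ccnb2 (-0.0012 to 0.56), Ccnb1 to Cdk1 (-0.19 to 0.0068), Wee2 to Pkmyt1 (-0.17 to 0.098), Wee2 to Cdc25b (-0.11 to 0.82), Cdc25b to Cdc25a (-0.55 to 0.19) and Cdc25b to Cdc25c (-0.58 to 0.35).

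The deviations of same-numbered libraries correlated with r = 0.0453 over 9461 genes, so no shift shared by replicate number was seen. That correlation cannot tell whether same-numbered libraries came from the same culture or day. With the replicate block the log2 fold changes were those without it (0.21 for Ccnb1 and -0.33 for Cks2), and 0 members and 0 of all genes were called. Intervals within 2-fold were found for 7 instead of 8 members and for 79.9% of all tested genes. The block left 1 residual degree of freedom per gene before moderation. Levels per principal transcript and the fits of Pkmyt1 and Cdc25b without the filter were chosen after seeing the data. With 2 libraries a group, 26 to 72 reads for Pkmyt1 and Cdc25b limit what could be seen.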
